A study of Mus musculus with 24 samples.

Results

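The genes described here are 34 components of the mouse autophagy pathway, measured in peritoneal macrophages treated or not with ONX-0914. They were chosen by name, as the core autophagy machinery and a set of cargo receptors, with the receptor gene Sqstm1 (p62) kept outside the set. All 34 were found among the 54532 features of the deposited count table, and all 34 passed the filter on low counts that left 14692 genes for testing. They fall into 7 roles: 5 genes of the initiation kinase complex, 3 of the phosphatidylinositol 3-kinase complex, 5 lipid transfer proteins and PI3P effectors, 7 conjugation enzymes, 4 ATG4 proteases, 5 ATG8 proteins and 5 cargo receptors.

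Macroautophagy encloses cytoplasm, damaged organelles or protein aggregates in a double membrane, the autophagosome, which then fuses with the lysosome. A kinase complex starts the process, a lipid kinase complex marks the membrane with PI3P, lipid transfer proteins feed its growth, and a ubiquitin-like conjugation system attaches ATG8 proteins to its lipids. Cargo receptors bind both ubiquitylated cargo and ATG8 proteins, so that autophagy and the proteasome handle overlapping substrates. In macrophages the same machinery also serves the clearance of intracellular microbes and the restraint of inflammatory signalling.

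The series holds 24 polyadenylated RNA libraries in 6 groups of 4. M0 were unstimulated control macrophages, M1 were polarized with lipopolysaccharide (LPS) and interferon-γ (IFN-γ), and M2 with interleukin-4 (IL-4); the other 3 groups received ONX-0914 in the same states (M0_ONX0914, M1_ONX0914 and M2_ONX0914). ONX-0914 is an inhibitor selective for PSMB8 (LMP7), a catalytic subunit of the immunoproteasome. Each library pooled cells of 2 to 3 mice, and the replicates were independent. All groups shared the cell source, and the sources used here do not state the mice's genotype, strain or age, or the doses and times. The title names suppression of M1 polarization and an axis of NRF1, NRF2 and p62 as the study's subject, and the comparisons below ask how the autophagy genes moved with the inhibitor and with polarization.

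Library totals ran from 18230924 to 22882972 counts, and the 34 genes together took between 0.211% and 0.333% of them. One library, M1 replicate 2, was unlike the rest of its group: mitochondrial genes took 0.300% of its counts, and 1.07% to 1.14% in the 3 remaining M1 libraries. The counts of members called with the inhibitor are given with and without it, as are many of the single calls that rest on it. The 11 macrophage markers were all detected in every group, with a summed level of 12580 to 18496 CPM (counts scaled to a common library total) per library. The 11 B cell markers summed to 106 to 115 CPM in M0 and 61.6 to 68.4 CPM in M0_ONX0914, to 77.8 to 90.0 CPM in M1 and 39.7 to 44.9 CPM in M1_ONX0914, and to 115 to 123 CPM in M2 and 60.7 to 68.1 CPM in M2_ONX0914. Most of that sum was Cd22, with a mean of 85.6 CPM in M0 and 55.3 CPM in M0_ONX0914, followed by Ighm at 15.4 and 5.44 CPM. None of the B cell markers was at 0 in any group. Mesothelial and fibroblast markers summed to 663 to 973 CPM per library, and none of these 10 markers was at 0. The macrophage sum in M0 was 16321 to 18496 CPM without the inhibitor and 13996 to 15381 CPM with it, and Lyz2 made up most of it, at means of 10496 and 8336 CPM. Other macrophage markers went both ways in M0. Cd68 stood at 1880 and 2003 CPM, Itgam at 104 and 137 CPM, and Adgre1 at 186 and 188 CPM. Csf1r was lower with the inhibitor (384 and 342 CPM), as were Lamp1 (3335 and 3089 CPM) and Mertk (89.1 and 83.3 CPM). The polarized states were mixed too. Csf1r stood at 306 and 179 CPM in M1 and at 744 and 595 CPM in M2, without and with the inhibitor. Adgre1 was also lower with the inhibitor in M1 and M2, while Cd14 was higher in both. What part these marker levels had in the results below was not tested. In bulk RNA, fewer cells of a type and less RNA per cell cannot be told apart.

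With ONX-0914, autophagy genes moved in both directions in every state. In M0, 8 rose and 5 fell, against 21.0% of all genes tested called in that comparison (edgeR quasi-likelihood test, Benjamini-Hochberg adjusted p under 0.05, as throughout). In M1, 12 rose and 9 fell, where 44.3% of all genes were called. In M2, 16 rose and 7 fell, where 36.4% were called. These are 38.2%, 61.8% and 67.6% of the members. Of all genes, 9.54%, 16.6% and 17.6% rose and 11.4%, 27.7% and 18.8% fell in M0, M1 and M2. Autophagy genes are well expressed, and among the 9307 genes with at least the level of the lowest member the called shares were 27.1% in M0, 55.9% in M1 and 45.7% in M2. The median log2 change of the members was 0.03 in M0, -0.06 in M1 and 0.10 in M2, and that of all genes was -0.00, -0.08 and -0.00. Treated and untreated libraries did not overlap in 26.9%, 36% and 39.2% of all genes tested in M0, M1 and M2. Among the members, 10 lay wholly higher and 7 wholly lower in M0, 11 and 7 in M1, and 15 and 8 in M2. Without M1 replicate 2 in the fit, 13 members rose and 8 fell in M0, 13 rose and 7 fell in M1, and 16 rose and 7 fell in M2. The rises gained in M0 were Atg12 (0.15, adjusted p = 0.00868), Atg13 (0.15, adjusted p = 0.0253), Atg4c (0.15, adjusted p = 0.0418), Atg16l2 and Rb1cc1. The falls gained in M0 were Atg101 (-0.24, adjusted p = 0.0219), Gabarap (-0.15, adjusted p = 0.0318) and Tollip (-0.12, adjusted p = 0.0278). In the same fit, all genes called went from 3079 to 4340 in M0, from 6514 to 6804 in M1 and from 5345 to 6384 in M2.

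**Figure D1:**
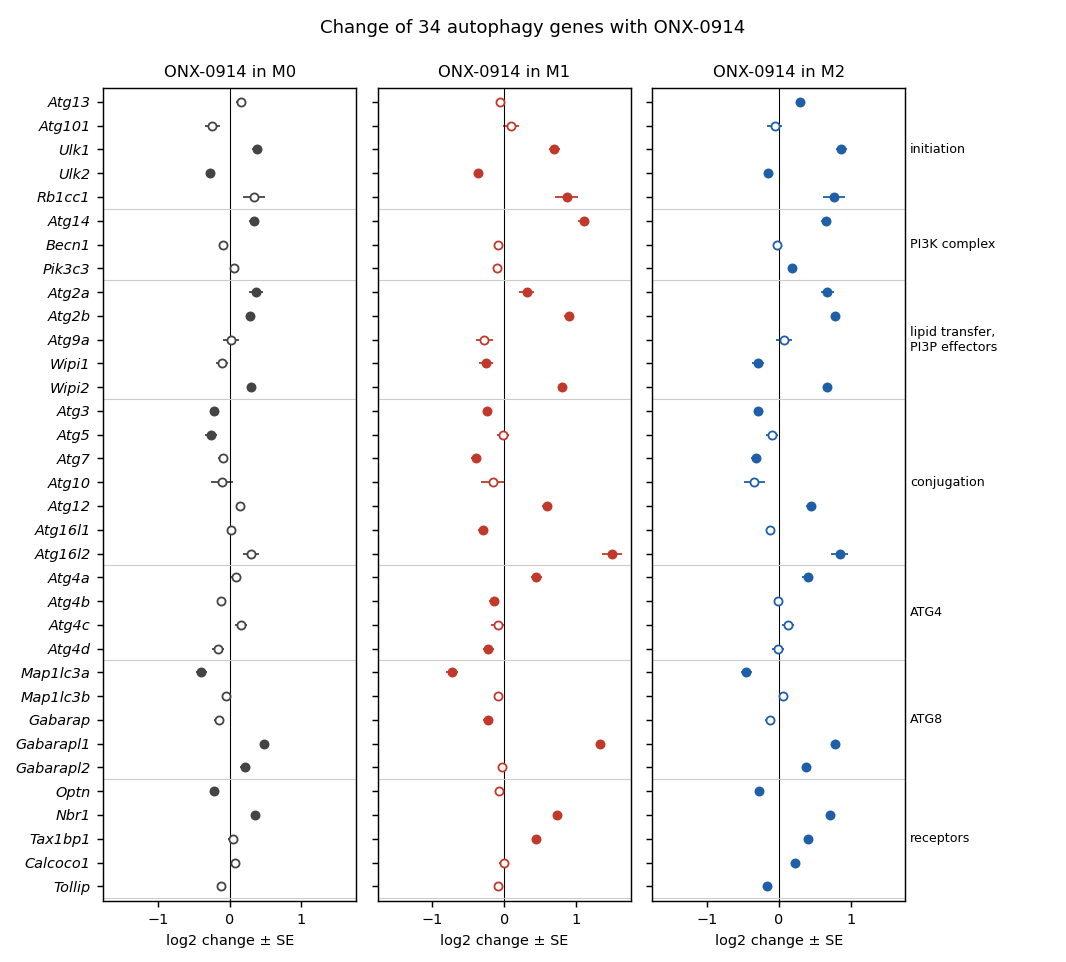
Log2 change with ONX-0914 of each of the 34 genes (x axis, ± SE; 4 libraries a group) in M0, M1 and M2, grouped by role; filled points passed an adjusted p of 0.05 and open points did not. Gabarapl1, Ulk1, Atg14, Atg2b, Wipi2 and Nbr1 lie to the right of 0 in all 3 panels, and Map1lc3a, Ulk2 and Atg3 to the left.

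Across the 3 states, 7 genes rose with the inhibitor each time: Ulk1, Atg14, Atg2a, Atg2b, Wipi2, Gabarapl1 and Nbr1. They come from 5 of the 7 roles, with no gene of the conjugation enzymes or ATG4 proteases among them. Ulk2, Atg3 and Map1lc3a fell each time. Another 6 rose in 2 of the states (Atg4a, Atg12, Atg16l2, Rb1cc1, Gabarapl2 and Tax1bp1) and 3 fell in 2 (Atg7, Wipi1 and Optn). The 6 genes called in none, in the fit on all libraries, were Atg4c, Atg9a, Atg10, Atg101, Becn1 and Map1lc3b. In each state alone, 21.0%, 44.3% and 36.4% of all genes tested were called in M0, M1 and M2. How many of all genes changed alike in 2 or 3 states was not counted, so these patterns have no share of all genes beside them. The inhibitor comparisons share no libraries with each other, but they came from the same fit with a shared estimate of spread. A library of M1 could therefore move calls in M0, as M1 replicate 2 did.

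**Figure D2:**
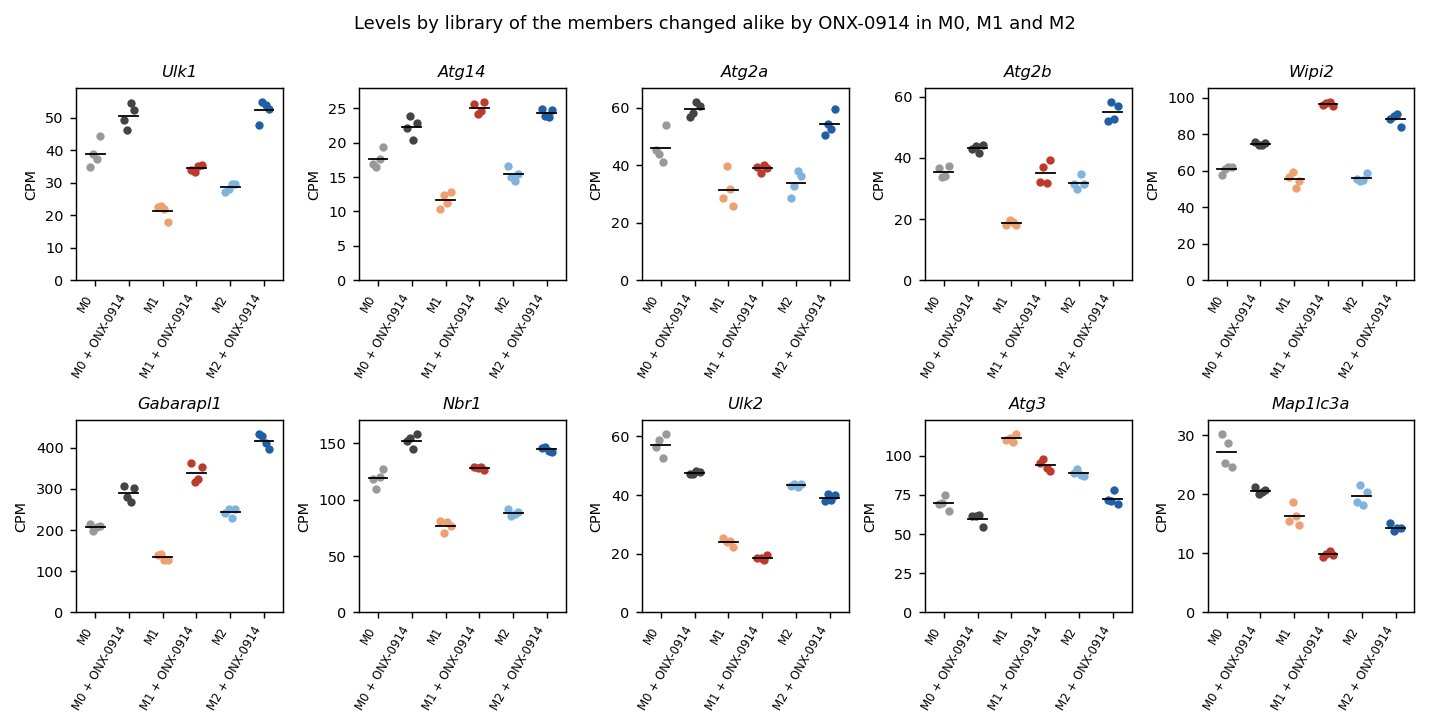
Level in CPM (y axis, from 0) in each of the 24 libraries of the 10 genes that changed the same way with ONX-0914 in all 3 states; points are libraries and lines are group means. In Gabarapl1 the M1 libraries are the lowest of all, at 128 to 142 CPM, and the M2_ONX0914 libraries the highest, at 396 to 434 CPM.

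The sequences before the transcription starts of some of these genes are shown because the genes moved the same way in every state. RefSeq (GRCm38.p6) gave a promoter for 28 of the 34 members, and the 250 bases before each start were searched on both strands. The lines below give the non-exonic bases nearest the start, on the gene's strand, for 3 genes that rose in every state (Ulk1, Atg2a, Nbr1) and for 2 that fell in every state (Ulk2, Atg3), with motif matches in capitals. Gabarapl1 and Wipi2 are not shown because their windows are annotated as exon. Also left out are shorter stretches of Atg14 (53 bases, no motif marked) and Atg2b (33 bases, with a GC box). Map1lc3a is not shown either.
Ulk1: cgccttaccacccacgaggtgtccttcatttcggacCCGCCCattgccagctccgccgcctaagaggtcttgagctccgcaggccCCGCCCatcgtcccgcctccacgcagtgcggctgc
Atg2a: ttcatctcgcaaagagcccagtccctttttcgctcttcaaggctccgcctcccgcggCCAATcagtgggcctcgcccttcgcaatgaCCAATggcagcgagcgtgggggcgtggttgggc
Nbr1: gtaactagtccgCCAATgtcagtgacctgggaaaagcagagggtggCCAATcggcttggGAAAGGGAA
Ulk2: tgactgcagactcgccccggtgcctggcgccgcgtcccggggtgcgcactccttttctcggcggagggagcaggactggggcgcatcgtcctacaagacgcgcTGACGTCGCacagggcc
Atg3: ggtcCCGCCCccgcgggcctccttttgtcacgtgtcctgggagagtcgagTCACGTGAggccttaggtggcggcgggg
The Ulk1 bases lie at chr5:110810098-110810217 on the minus strand, and the capitals mark the GC box GGGCGG, read on the opposite strand. The Atg2a bases lie at chr19:6241548-6241667 on the plus strand, with 2 CCAAT boxes. The Nbr1 bases lie at chr11:101552586-101552653 on the plus strand, before the downstream of its 2 starts, with 2 CCAAT boxes and, 9 bases before the start, the interferon response core GAAANNGAA. The Ulk2 bases lie at chr11:61855093-61855212 on the minus strand, with the antioxidant response element core TGACNNNGC 17 bases before the start. The Atg3 bases lie at chr16:45158707-45158784 on the plus strand, with a GC box and, 72 bases before the start, TCACGTGA, the E-box read by TFEB and its relatives. Of the 28 members with a promoter, 1 held TCACGTGA (Atg3), 3 TGACNNNGC, 2 GAAANNGAA, 19 GGGCGG and 6 CCAAT. Among all 32851 promoters the shares with a match were 0.785%, 10.2%, 7.13%, 32.7% and 33.8%. The units differ: a member counted if any of its promoters matched (32 promoters for the 28 members), while these shares are per promoter. The FOXO core TGTTTAC, the ATF4 element TGATGNAA and the heat shock unit GAANNTTC, found in 3.17%, 3.45% and 6.69% of all promoters, matched in none of the members' windows. GGGCGG goes with base composition, and the median GC content was 59.2% in the members' windows and 52.4% in all. A match is a run of letters and shows no binding.

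The ATG8 proteins, which coat the growing membrane and hold cargo receptors to it, did not move together. Gabarapl1 (ENSMUSG00000030161) lies at chr6:129533160-129542346 on the plus strand of GRCm38 and Map1lc3a (ENSMUSG00000027602) at chr2:155276297-155278073 on the plus strand. Gabarapl1 stood at 216, 197, 209 and 210 CPM in M0 and at 307, 281, 269 and 301 CPM in M0_ONX0914. In M1 it stood at 139, 142, 128 and 128 CPM, against 363, 316, 325 and 353 CPM with the inhibitor. In M2 the values were 242, 251, 229 and 251 CPM, against 434, 428, 412 and 396 CPM. Treated and untreated libraries did not overlap in any state, and Gabarapl1, lowest of all groups in M1, ended above M0_ONX0914 there once the inhibitor was present. The log2 changes were 0.48 ± 0.06 in M0 (adjusted p = 4.02e-07), 1.34 ± 0.06 in M1 (adjusted p = 2.45e-16) and 0.78 ± 0.06 in M2 (adjusted p = 1.43e-11). The annotated transcript 1700101I11Rik, on the other strand, overlaps 28.3% of the exonic bases of Gabarapl1 and had group means of 0.44 to 1.82 CPM. No source used here states whether counting used strand.

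Map1lc3a, which encodes LC3A, went the other way. Its M0 libraries stood at 30.2, 25.3, 28.6 and 24.6 CPM and its M0_ONX0914 libraries at 21.3, 20.0, 20.5 and 20.8 CPM. The M1 libraries held 15.5, 18.6, 16.4 and 14.7 CPM and the M1_ONX0914 libraries 9.40, 9.96, 10.4 and 9.72 CPM. In M2 it was at 18.6, 21.5, 18.2 and 20.4 CPM, and in M2_ONX0914 at 15.1, 13.8, 14.2 and 14.3 CPM. Every treated library lay below every untreated one of its state. The log2 changes were -0.40 ± 0.08 (adjusted p = 0.000313), -0.72 ± 0.09 (adjusted p = 8.96e-08) and -0.45 ± 0.08 (adjusted p = 4.12e-05) in M0, M1 and M2. Map1lc3b, the source of the LC3B protein used as a marker of autophagosomes, was called in none of the 3 states: its group means were 164 and 159 CPM in M0, 114 and 107 CPM in M1, and 146 and 152 CPM in M2, without and with the inhibitor. Gabarap fell in M1 by 0.23 on the log2 scale (adjusted p = 0.00444), from 604 ± 49.4 to 515 ± 37.5 CPM (SD, n = 4 libraries a group), and kept that direction without reaching the threshold when the M1 and M1_ONX0914 libraries were fitted alone (-0.14, adjusted p = 0.162). It was also lower, without a call, in M0 (-0.15, adjusted p = 0.105) and M2 (-0.12, adjusted p = 0.145). With limma voom and quality weights it was called in both (adjusted p = 0.0125 and 0.0439). Gabarapl2 rose in M0 (log2 change 0.21, adjusted p = 0.0159) and in M2 (0.38, adjusted p = 2.14e-05) and was at 48.4 ± 4.36 and 47.5 ± 1.66 CPM in M1 and M1_ONX0914 (SD, n = 4). Its M0 call was lost without M0 replicate 2 (0.19) and without M0_ONX0914 replicate 1 (0.19).

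Per length of exon, Gabarap was the highest of the 34 genes in every group and Gabarapl1 the next. In M0 they stood at 254 ± 15.4 and 103 ± 3.85 CPM per kb (SD, n = 4), and in M2_ONX0914 at 235 ± 12.1 and 207 ± 8.37 CPM per kb. The ratio of Gabarap to Gabarapl1 per kb, taken within each library, was 2.46 ± 0.155 in M0 and 1.60 ± 0.0703 in M0_ONX0914. It was 4.91 ± 0.190 in M1 and 1.66 ± 0.0931 in M1_ONX0914, and 2.11 ± 0.0566 in M2 and 1.13 ± 0.0365 in M2_ONX0914 (SD, n = 4). The ranges of treated and untreated libraries did not overlap in any state. As a share of the 5 ATG8 genes' summed CPM per kb, Gabarapl1 made up 24.4% ± 1.14 of M0, 15.03% ± 0.457 of M1 and 28.1% ± 0.451 of M2, and 32.9% ± 0.945, 34.3% ± 1.10 and 41.7% ± 0.621 with the inhibitor (SD, n = 4). These lengths are of all annotated exons joined, so a gene with long unused exons reads low on this scale.

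**Figure D3:**
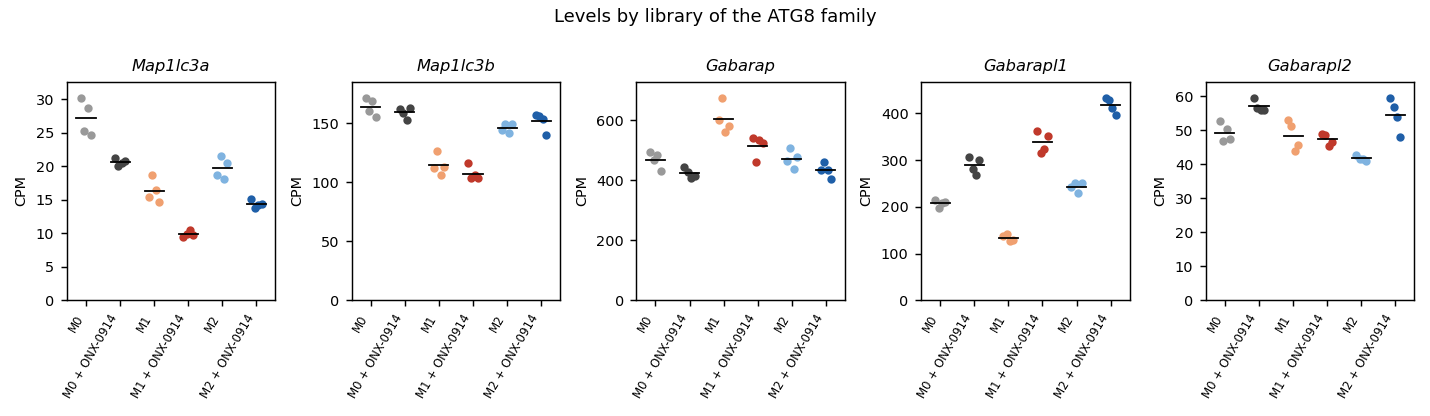
Level in CPM (y axis, from 0) of the 5 ATG8 genes in each library; points are libraries and lines are group means. Gabarapl1 is higher and Map1lc3a lower in every treated group than in its untreated state, while the Map1lc3b points of treated and untreated cells mix within each state.

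In the initiation kinase complex, which answers to nutrient and energy sensing, the kinase paralogs ULK1 and ULK2 went in opposite directions. Ulk1 stood at 35.0, 38.9, 37.2 and 44.3 CPM in M0 and at 49.2, 46.3, 54.6 and 52.4 CPM in M0_ONX0914. It stood at 22.4, 22.8, 21.9 and 17.8 CPM in M1 against 33.8, 33.3, 35.3 and 35.4 CPM with the inhibitor, and at 27.2, 28.05, 29.5 and 29.5 CPM in M2 against 47.6, 54.8, 53.8 and 52.7 CPM. The treated libraries lay above the untreated ones in each state, by 0.38 ± 0.07 in M0, 0.70 ± 0.08 in M1 and 0.87 ± 0.07 in M2 on the log2 scale (adjusted p = 0.000347, 4.52e-08 and 3.51e-10). Ulk2 stood at 56.5, 58.8, 52.8 and 60.8 CPM in M0 and 47.2, 47.2, 48.2 and 47.7 CPM in M0_ONX0914. Its M1 libraries were at 25.3, 24.1, 24.2 and 22.3 CPM and its M1_ONX0914 libraries at 18.5, 18.5, 17.7 and 19.7 CPM, and in M2 they were at 43.2, 43.6, 42.7 and 43.7 CPM against 38.0, 40.4, 38.1 and 39.9 CPM. Every treated library was below the untreated ones, with log2 changes of -0.27 ± 0.05, -0.37 ± 0.06 and -0.15 ± 0.05 (adjusted p = 0.000262, 5.91e-06 and 0.0238). The M2 call of Ulk2 was lost without M2 replicate 2 (-0.14) or 4 (-0.14) and without M2_ONX0914 replicate 1 (-0.13) or 3 (-0.14). The ratio of Ulk1 to Ulk2 per kb went from 0.6252 ± 0.0445 to 0.980 ± 0.0615 in M0, from 0.815 ± 0.0585 to 1.71 ± 0.0885 in M1 and from 0.607 ± 0.0252 to 1.23 ± 0.0612 in M2 (SD, n = 4), so that Ulk2 was the higher of the pair in every untreated group and Ulk1 in M1_ONX0914 and M2_ONX0914.

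Rb1cc1 encodes FIP200, the scaffold of the same complex. It rose in M1, by 0.87 ± 0.16 on the log2 scale (adjusted p = 7.12e-05), and in M2, by 0.78 ± 0.15 (adjusted p = 0.00021). The M1 libraries were at 36.3, 12.6, 34.1 and 34.7 CPM and the M1_ONX0914 libraries at 54.1, 57.0, 51.1 and 53.9 CPM. The low value belongs to M1 replicate 2, without which the log2 change in M1 was 0.62 and was still called. In M0 the libraries stood at 48.7, 51.0, 47.1 and 56.0 CPM against 59.97, 63.2, 66.3 and 66.3 CPM with the inhibitor and did not overlap, yet the adjusted p of the fit on all libraries was 0.124. Without M1 replicate 2 that Rb1cc1 comparison gave a log2 change of 0.33 with an adjusted p of 3.13e-05, and with the M0 and M0_ONX0914 libraries alone 0.34 with an adjusted p of 0.00019. Atg13, an adaptor that links the kinases to the scaffold, rose in M2 (0.30, adjusted p = 0.000265), from 73.4, 68.2, 69.6 and 69.3 CPM to 85.2, 89.3, 92.6 and 77.9 CPM. It stood at 97.1 and 108 CPM on average in M0 without and with the inhibitor, and at 79.5 and 76.6 CPM in M1. Atg101, a partner of ATG13, was called in none of the 3 states in the fit on all libraries, with group means between 16.1 and 20.8 CPM. Without M1 replicate 2 it was called as lower with the inhibitor in M0 (-0.24, adjusted p = 0.0219) and as higher in M1 (0.25, adjusted p = 0.028).

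Of the lipid kinase complex, only the subunit gene Atg14 changed in every state. ATG14 directs the kinase VPS34 (Pik3c3) and Beclin 1 (Becn1) to the site where autophagosomes form. Atg14 stood at 16.8, 16.5, 17.6 and 19.4 CPM in M0 and 22.2, 23.9, 20.4 and 22.9 CPM in M0_ONX0914. In M1 its libraries were at 10.4, 12.3, 11.3 and 12.8 CPM, against 25.7, 24.2, 24.6 and 25.9 CPM, and in M2 at 16.6, 15, 14.5 and 15.5 CPM, against 24.8, 23.9, 23.8 and 24.7 CPM. Treated libraries were above all untreated ones, by 0.34 ± 0.07, 1.10 ± 0.07 and 0.66 ± 0.07 on the log2 scale (adjusted p = 0.000709, 2.71e-12 and 2.35e-08). Becn1 was at 63.3 and 59.2 CPM in M0, 86.9 and 81.9 CPM in M1, and 68.5 and 67.5 CPM in M2, with log2 changes of -0.10, -0.09 and -0.02, none called. Pik3c3 rose in M2 by 0.18 (adjusted p = 0.0115), a call lost without M2 replicate 3 (0.14).

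Both ATG2 genes, whose proteins carry lipids from the endoplasmic reticulum into the growing membrane, rose in all 3 states. Atg2b stood at 36.6, 33.6, 34.1 and 37.3 CPM in M0 and 42.9, 44.0, 41.7 and 44.3 CPM in M0_ONX0914. The M1 values were 18.2, 19.6, 19.1 and 18.1 CPM, against 32.2, 36.9, 32.0 and 39.3 CPM with the inhibitor, and the M2 values 31.4, 29.9, 34.9 and 31.3 CPM, against 52.2, 58.3, 52.8 and 56.9 CPM. None of the ranges overlapped, and the log2 changes were 0.29 ± 0.06, 0.90 ± 0.07 and 0.79 ± 0.06 (adjusted p = 0.0019, 3.93e-11 and 1.73e-10). Atg2a rose by 0.36, 0.31 and 0.68 (adjusted p = 0.00643, 0.0129 and 2.6e-06), and its M1 call, where the ranges overlapped at 25.9 to 39.7 against 37.5 to 40.2 CPM, was lost without M1 replicate 4 (0.23). Wipi2, a PI3P reader that recruits ATG16L1, stood at 60.8 ± 2.01 and 74.9 ± 0.698 CPM in M0, 55.2 ± 3.66 and 96.5 ± 1.06 CPM in M1, and 55.8 ± 1.86 and 88.4 ± 3.19 CPM in M2 without and with the inhibitor (SD, n = 4). Its log2 changes were 0.30, 0.81 and 0.66 (adjusted p = 3.32e-05, 2.1e-13 and 1.15e-11). Its paralog Wipi1 fell in M2 (-0.29, adjusted p = 0.00681) and in M1 (-0.26, adjusted p = 0.0363), the latter lost without M1 replicate 2 (-0.20) or M1_ONX0914 replicate 1 (-0.17) or 2 (-0.24). The ratio of Wipi2 to Wipi1 per kb was 2.07 ± 0.0819 and 2.73 ± 0.0508 in M0, 3.15 ± 0.179 and 6.64 ± 0.927 in M1, and 1.62 ± 0.0718 and 3.15 ± 0.277 in M2 (SD, n = 4). Atg9a, which encodes a membrane protein carried on the vesicles that seed autophagosomes, was called in none, with group means between 13.5 and 18.3 CPM.

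The conjugation enzymes split. Atg16l2 (ENSMUSG00000047767, chr7:101263034-101302251 on the minus strand of GRCm38), a paralog of the ATG16L1 subunit that brings the conjugation complex to the membrane, stood at 3.31, 4.98, 2.95 and 4.91 CPM in M1 and at 10.7, 12.2, 10.97 and 11.6 CPM in M1_ONX0914. In M2 it stood at 6.93, 7.65, 9.01 and 7.62 CPM, against 13.4, 13.6, 14.7 and 14.6 CPM. Treated and untreated libraries did not overlap in either state, and the log2 changes of 1.5 ± 0.14 in M1 (adjusted p = 8.14e-10) and 0.85 ± 0.12 in M2 (adjusted p = 1.62e-06) were among the largest of the 34 genes. In M0 the libraries overlapped, at 12.5, 11.2, 10.9 and 12.1 CPM against 16.9, 12.1, 15.1 and 13.3 CPM, with a log2 change of 0.30 ± 0.11 (adjusted p = 0.0632) that passed the threshold without M1 replicate 2 (0.29, adjusted p = 0.0277), without M1 replicate 3 (0.29, adjusted p = 0.0442) and without M0_ONX0914 replicate 2 (0.37, adjusted p = 0.0281). Fchsd2, on the other strand, shares 0.295% of the exonic bases of Atg16l2. The more abundant Atg16l1 fell in M1 by 0.30 on the log2 scale (adjusted p = 0.000144), from 75.5, 78.9, 67.6 and 71.3 CPM to 62.1, 60.7, 56.8 and 58.4 CPM, with no overlap. The ratio of Atg16l1 to Atg16l2 per kb was 16.7 ± 3.93 in M1 and 4.62 ± 0.334 in M1_ONX0914 (SD, n = 4).

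Atg12, the ubiquitin-like modifier joined to ATG5, rose in M1 (0.59, adjusted p = 2.18e-08) and M2 (0.45, adjusted p = 2.46e-06), from 91.7 ± 11.5 to 138 ± 5.09 CPM and from 110 ± 3.51 to 150 ± 4.55 CPM (SD, n = 4). Atg7, the activating enzyme of both ubiquitin-like modifiers, fell in M1, from 52.3, 60.8, 55.5 and 49.9 CPM to 42.6, 42.5, 41.8 and 39.2 CPM, and in M2, from 115, 132, 125 and 125 CPM to 103, 101, 104 and 89.6 CPM. All treated libraries were lower in both states, with log2 changes of -0.39 ± 0.07 (adjusted p = 2.87e-05) and -0.32 ± 0.06 (adjusted p = 0.000229). Atg3, the enzyme that passes ATG8 proteins on to phosphatidylethanolamine, fell in all 3 states by 0.22, 0.24 and 0.29 on the log2 scale (adjusted p = 0.0028, 0.000402 and 6.67e-05), with no overlap. With the M1 and M1_ONX0914 libraries fitted alone, Atg3 did not reach the threshold (-0.15, adjusted p = 0.0546). Atg5 fell in M0 (-0.26, adjusted p = 0.0273), a call lost without M0 replicate 1 (-0.21), M0_ONX0914 replicate 1 (-0.25) or M0_ONX0914 replicate 4 (-0.25). Atg10, which transfers ATG12 and had group means of 5.75 to 7.93 CPM, was called in none.

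Of the ATG4 proteases, which trim ATG8 proteins before conjugation and release them from membranes, Atg4a rose in M1 (0.45, adjusted p = 1.9e-05) and M2 (0.40, adjusted p = 7.08e-05). Its means went from 21.9 to 29.8 CPM in M1 and from 22.9 to 30.2 CPM in M2, with no overlap. Atg4b fell in M1 at the edge of the threshold (-0.15, adjusted p = 0.0487), and that call was lost in 18 of the 24 fits that left out a library, with log2 changes from -0.16 to -0.09. Atg4d also fell in M1 (-0.22, adjusted p = 0.0255), with overlapping libraries at 38.3, 44.8, 34.6 and 35.1 CPM against 36.0, 31.4, 32.3 and 31.1 CPM. The Atg4d call was lost without M1 replicate 2 (-0.14) and without M1_ONX0914 replicate 2 (-0.20), 3 (-0.21) or 4 (-0.20). Kri1 overlaps 19.3% of the exonic bases of Atg4d on the other strand and had group means of 17.8 to 39.9 CPM (32.3 in M1 and 39.9 in M1_ONX0914), so reads of the pair cannot be told apart there if counting ignored strand. Atg4c was called in none of the 3 states in the fit on all libraries. Without M1 replicate 2 it was called at 0.15 in M0 (adjusted p = 0.0418) and at -0.21 in M1 (adjusted p = 0.0148).

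Among the cargo receptors, Nbr1 rose in every state. NBR1 is an aggregate receptor that works beside p62. It stood at 118, 110, 120 and 127 CPM in M0 and 152, 155, 145 and 158 CPM in M0_ONX0914, at 80.7, 70.8, 80.0 and 76.6 CPM in M1 and 129, 128, 129 and 126 CPM in M1_ONX0914, and at 92.0, 85.3, 87.1 and 88.8 CPM in M2 and 146, 147, 144 and 143 CPM in M2_ONX0914. No libraries overlapped, and the log2 changes were 0.36 ± 0.05, 0.73 ± 0.05 and 0.71 ± 0.05 (adjusted p = 3.87e-06, 3.04e-12 and 5.77e-12). Tax1bp1, a receptor for ubiquitylated cargo, rose in M1 (0.45, adjusted p = 1.55e-06; 0.35 without M1 replicate 2) and M2 (0.41, adjusted p = 7.46e-06) and was at 420 and 433 CPM in M0. Optn, a receptor for microbes and mitochondria, fell in M0 (-0.21, adjusted p = 0.0024) and M2 (-0.28, adjusted p = 5.31e-05), and stood at 96.8 ± 4.22 and 92.1 ± 3.35 CPM in M1 (SD, n = 4). Calcoco1, a receptor for parts of the endoplasmic reticulum and Golgi, rose in M2 alone of the 3 comparisons (0.22, adjusted p = 0.00369), from 41.0, 43.8, 41.4 and 46.7 CPM to 51.7, 52.3, 51.3 and 46.4 CPM, with overlap. The difference between its effects in M1 and M2 did not pass the test (-0.23, adjusted p = 0.0941). Tollip, an endosomal adaptor that binds ubiquitin, fell in M2 (-0.17, adjusted p = 0.0045).

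Sqstm1, kept outside the set, encodes p62, the best known partner of NBR1. It stood at 679, 686, 705 and 619 CPM in M0 and 858, 850, 812 and 869 CPM in M0_ONX0914. In M1 it was at 1503, 1807, 1482 and 1505 CPM, against 3510, 3544, 3612 and 3619 CPM, and in M2 at 770, 763, 739 and 788 CPM, against 1502, 1513, 1496 and 1417 CPM. The log2 changes were 0.33, 1.18 and 0.95 (adjusted p = 6.74e-05, 1.7e-15 and 1.76e-13). Sqstm1 also rose in M1 against M0 (1.23, adjusted p = 4.38e-17), where Nbr1 fell.

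Polarization with LPS and IFN-γ lowered most of the 34 genes. In M1 against M0, 7 rose and 21 fell, or 82.4% of the members. Of all genes, 68.8% were called (34.6% higher and 34.2% lower), and 76.0% among genes at or above the lowest member's level. The median log2 change was -0.26 for the members and -0.02 for all genes. Within the initiation complex 4 of 5 fell and none rose, and of the lipid transfer proteins and PI3P effectors 4 of 5 fell and none rose. Polarization with IL-4 changed fewer members: 5 rose and 14 fell, or 55.9% of them. Of all genes, 36.2% were called (18.7% higher and 17.5% lower), and 42.9% at or above that level. The medians were -0.11 for the members and 0.01 for all genes. In M1 against M2, 10 rose and 18 fell, or 82.4% of the members. Of all genes, 66.6% were called (32.2% higher and 34.4% lower), and 73.8% at or above that level. The medians were -0.23 for the members and -0.04 for all genes. The libraries of the 2 groups did not overlap in 58.1% of all genes in M1 against M0, 37.9% in M2 against M0 and 56.8% in M1 against M2. Among the members, 7 lay wholly higher and 19 wholly lower in the first, 7 and 12 in the second, and 10 and 15 in the last. These 3 comparisons share the M0, M1 and M2 libraries by pairs, so they are not independent of each other. Those against M0 or between states also share their untreated libraries with the inhibitor comparisons.

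**Figure D4:**
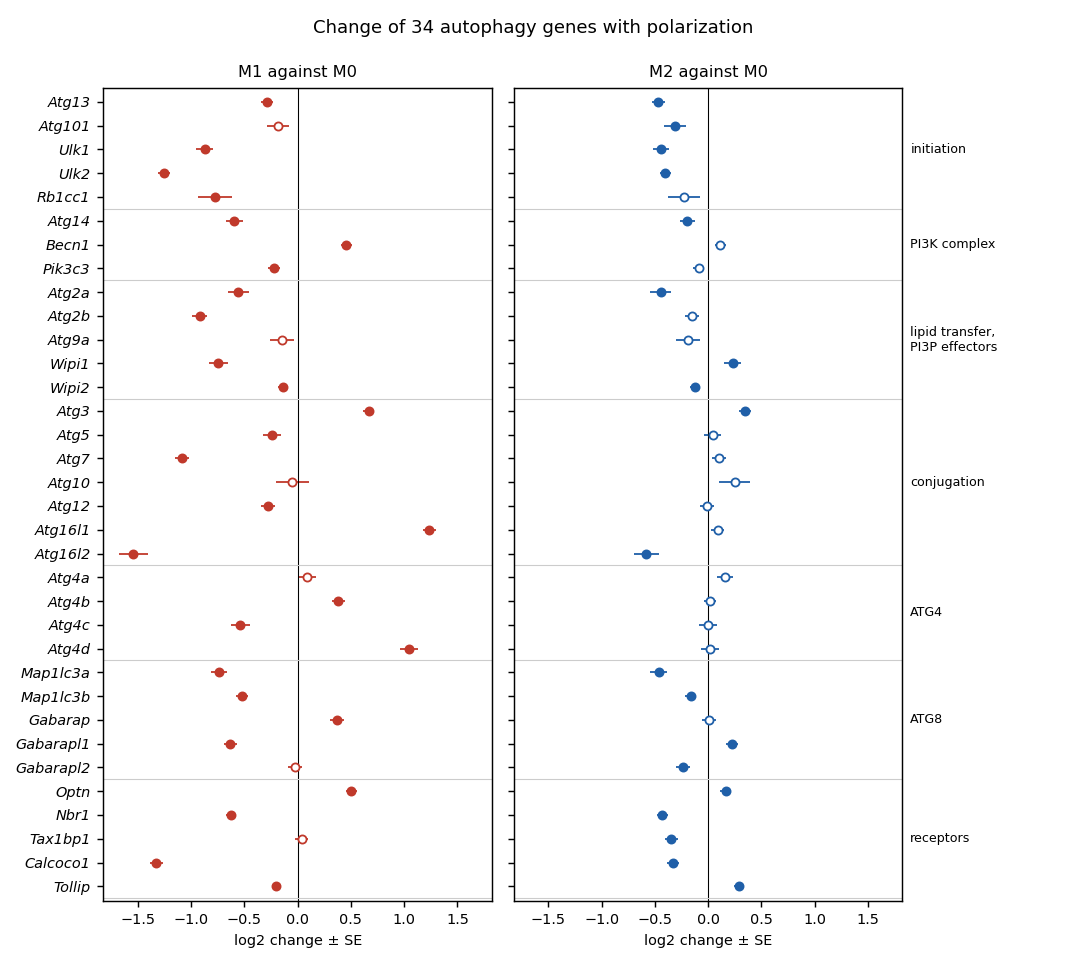
Log2 change of each of the 34 genes (x axis, ± SE; 4 libraries a group) in M1 against M0 and in M2 against M0, grouped by role; filled points passed an adjusted p of 0.05. Atg16l2, Calcoco1, Ulk2 and Atg7 lie furthest to the left in the M1 panel and Atg16l1 and Atg4d furthest to the right.

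Atg16l2 and Atg16l1 moved in opposite directions with LPS and IFN-γ. Atg16l2 went from 12.5, 11.2, 10.9 and 12.1 CPM in M0 to 3.31, 4.98, 2.95 and 4.91 CPM in M1, a log2 change of -1.54 ± 0.13 (adjusted p = 6.44e-11). Atg16l1 went from 31.2, 30.6, 30.2 and 32.2 CPM to 75.5, 78.9, 67.6 and 71.3 CPM, a log2 change of 1.24 ± 0.06 (adjusted p = 1.96e-16). Neither pair of groups overlapped, and the ratio of Atg16l1 to Atg16l2 per kb was 2.35 ± 0.109 in M0 and 16.7 ± 3.93 in M1 (SD, n = 4). Calcoco1 went from 54.7, 52.5, 52.6 and 57.3 CPM to 19.5, 23.4, 21.9 and 21.8 CPM (-1.32 ± 0.06, adjusted p = 8.41e-17). Ulk2 went from 56.5, 58.8, 52.8 and 60.8 CPM to 25.3, 24.1, 24.2 and 22.3 CPM (-1.25 ± 0.05, adjusted p = 6.41e-18). Both lay below all M0 libraries in every M1 library.

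The other members that fell in M1 against M0 by over 0.5 on the log2 scale were Atg7 (-1.08), Atg2b (-0.92), Ulk1 (-0.87), Rb1cc1 (-0.78, and -0.53 without M1 replicate 2), Wipi1 (-0.75), Map1lc3a (-0.74), Nbr1 (-0.63), Gabarapl1 (-0.63), Atg14 (-0.59), Atg2a (-0.56), Atg4c (-0.54) and Map1lc3b (-0.52). Smaller falls were those of Atg13 (-0.29), Atg12 (-0.28), Atg5 (-0.24), Pik3c3 (-0.22), Tollip (-0.20) and Wipi2 (-0.14). The call of Atg5 was lost without M0 replicate 1 (-0.19) or M1 replicate 2 (-0.12), and that of Wipi2 without M1 replicate 3 (-0.10). Beside Atg16l1, the genes that rose were Atg4d (1.05), Atg3 (0.67), Optn (0.51), Becn1 (0.46), Atg4b (0.38) and Gabarap (0.37). Becn1 overlaps Cntd1 over 43.9% of its exonic bases, and Cntd1 had at most 0.18 CPM in any group. Tax1bp1 passed the threshold as higher in M1 only without M1 replicate 2 (0.13, adjusted p = 0.00287), as did Atg4a (0.16, adjusted p = 0.0412), while Atg101 (-0.33, adjusted p = 0.00156) and Atg9a (-0.29, adjusted p = 0.0117) then passed as lower.

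With IL-4, Atg16l2 again had the largest change of the members, from 12.5, 11.2, 10.9 and 12.1 CPM to 6.93, 7.65, 9.01 and 7.62 CPM (-0.58 ± 0.12, adjusted p = 0.000299). Atg13 fell from 99.0, 90.0, 94.4 and 105 CPM to 73.4, 68.2, 69.6 and 69.3 CPM (-0.47 ± 0.06, adjusted p = 4.12e-07), and Map1lc3a from 30.2, 25.3, 28.6 and 24.6 CPM to 18.6, 21.5, 18.2 and 20.4 CPM (-0.47 ± 0.08, adjusted p = 1.57e-05). None of these groups overlapped. Ulk1 (-0.45), Atg2a (-0.45), Nbr1 (-0.43), Ulk2 (-0.40), Tax1bp1 (-0.35), Calcoco1 (-0.33) and Gabarapl2 (-0.24) also fell. Atg3 (0.35), Tollip (0.29) and Gabarapl1 (0.23) rose. Gabarapl1 thus rose with IL-4 and fell with LPS and IFN-γ. The other 6 calls were each lost without some library: Atg101 fell (-0.31) and was lost without M0 replicate 1 or 3 or M2 replicate 4 (-0.28 to -0.25). Atg14 fell (-0.20) and was lost without M0 replicate 3 or 4 or M2 replicate 2, 3 or 4 (-0.20 to -0.14). Map1lc3b fell (-0.17) and was lost without M0 replicate 1 or 3 or M2 replicate 3 (-0.15 to -0.14), and Wipi2 fell (-0.12) and was lost in 17 of the 24 fits (-0.13 to -0.11). Wipi1 rose (0.23) and was lost without M0 replicate 1, 3 or 4 or M2 replicate 1 or 4 (0.18 to 0.23), and Optn rose (0.16) and was lost without M2 replicate 4 (0.13). Without M1 replicate 2, Rb1cc1 passed as lower in M2 (-0.23, adjusted p = 0.00195).

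Between the polarized states, Atg7 had the largest difference. It stood at 52.3, 60.8, 55.5 and 49.9 CPM in M1 and at 115, 132, 125 and 125 CPM in M2 (-1.18 ± 0.07, adjusted p = 4e-15). Atg16l1 stood at 75.5, 78.9, 67.6 and 71.3 CPM in M1 and 32.3, 33.1, 33.0 and 34 CPM in M2 (1.15 ± 0.06, adjusted p = 1.03e-15). Atg4d was at 38.3, 44.8, 34.6 and 35.1 CPM in M1 and 16.7, 21.4, 17.8 and 18.9 CPM in M2 (1.03 ± 0.08, adjusted p = 9.36e-12). The M1 and M2 libraries of these genes did not overlap. Calcoco1 (-0.996), Wipi1 (-0.97), Atg16l2 (-0.96), Gabarapl1 (-0.86), Ulk2 (-0.85) and Atg2b (-0.77) were also lower in M1 than in M2. The call of Pik3c3 (-0.13) was lost without M1 replicate 1 or 3 or M2 replicate 1, 2 or 4, at -0.13 to -0.10.

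Whether the inhibitor's effect differed between states was tested as an interaction. The effect was higher in M1 than in M0 for 10 members and lower for 3, where 19.3% of all genes were called. In M2 against M0 it was higher for 8 and lower for none, where 6.17% were called. Without M1 replicate 2 it was higher for 12, and all genes called went from 907 to 1672. In M1 against M2 it was higher for 4 and lower for 3, where 13.5% were called. Among genes at or above the lowest member's level the shares called were 25.6%, 8.78% and 18.6%, and 7 of 34 members, or 20.6%, were called in the last. The medians of the members were -0.03, 0.15 and -0.02, and those of all genes -0.06, 0.01 and -0.07. The first 2 tests share the M0 and M0_ONX0914 libraries. In the last, the share of called genes with a higher effect in M1 was 28.2% of all genes called, and 39.2% with DESeq2's size factors.

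**Figure D5:**
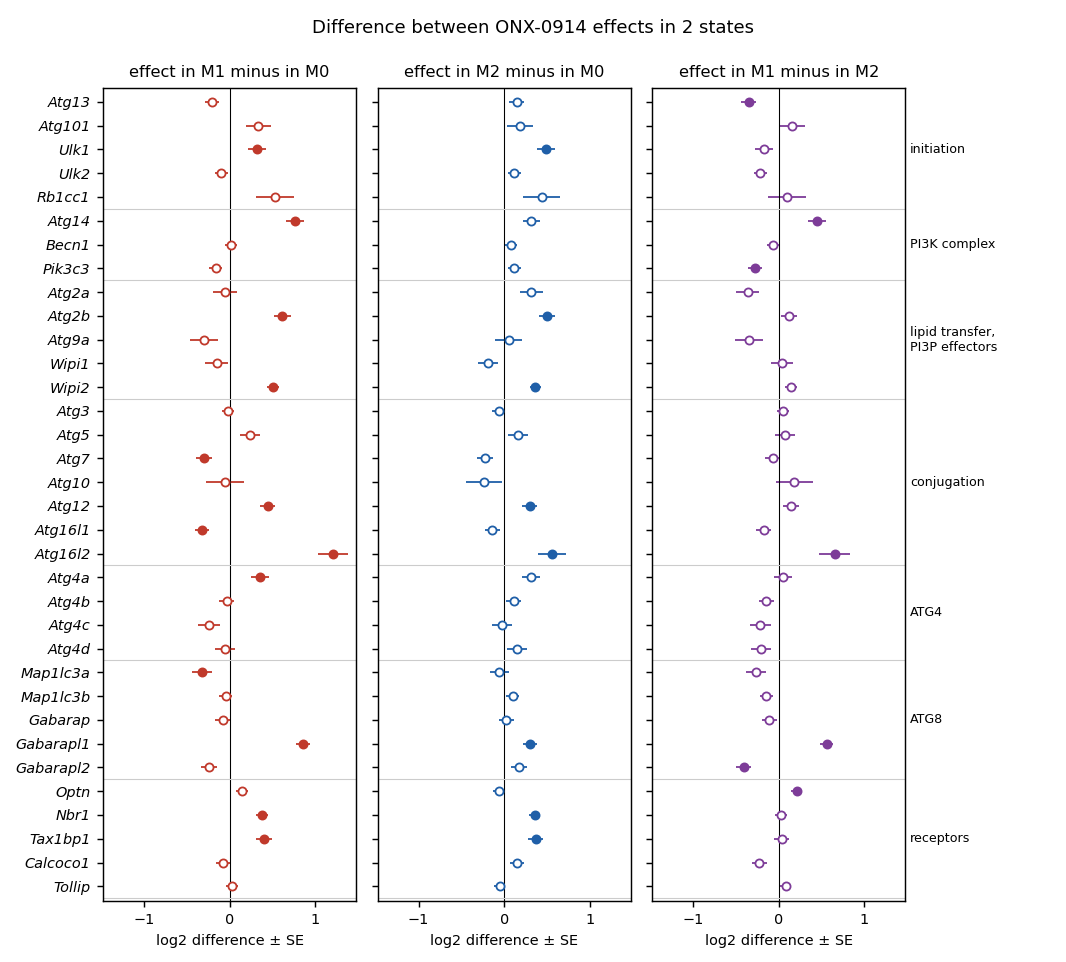
Difference between the log2 effects of ONX-0914 in 2 states (x axis, ± SE; 4 libraries a group) for each of the 34 genes: M1 minus M0, M2 minus M0 and M1 minus M2; filled points passed an adjusted p of 0.05. Atg16l2 and Gabarapl1 lie to the right of 0 in all 3 panels, and the filled points of the middle panel all lie to the right.

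Atg16l2 had the largest differences, of 1.20 ± 0.18 between M1 and M0 (adjusted p = 1.55e-05), 0.55 ± 0.16 between M2 and M0 (adjusted p = 0.04) and 0.65 ± 0.18 between M1 and M2 (adjusted p = 0.0158). Its call in M2 against M0 was lost in 13 of the 24 fits that left out a library (0.48 to 0.58), and that in M1 against M2 without M1 replicate 3 (0.52). Gabarapl1 differed by 0.86 ± 0.08 (adjusted p = 1.21e-08), 0.30 ± 0.08 (adjusted p = 0.0203) and 0.56 ± 0.08 (adjusted p = 1.57e-05), and its call in M2 against M0 was lost without M0 replicate 1 (0.28), M0_ONX0914 replicate 2 (0.29) or 3 (0.27), or M2 replicate 3 (0.27). Both genes were lowest of all groups in M1 without the inhibitor. Atg2b, the other gene with a leading difference in M2 against M0, differed by 0.50 ± 0.09 there (adjusted p = 0.000841) and by 0.62 ± 0.10 in M1 against M0 (adjusted p = 2.75e-05), but by 0.12 ± 0.10 between M1 and M2 (adjusted p = 0.491). Atg14 differed by 0.76 in M1 against M0 (adjusted p = 4.51e-06) and by 0.44 in M1 against M2 (adjusted p = 0.00374). Wipi2, Nbr1, Tax1bp1, Atg12 and Ulk1 responded more in both polarized states than in M0, by 0.30 to 0.51 on the log2 scale. Among these, Ulk1 in M1 against M0 was lost without M0 replicate 2 or 4, M0_ONX0914 replicate 1 or 2, M1 replicate 4 or M1_ONX0914 replicate 3 or 4 (0.24 to 0.32) and Atg12 in M2 against M0 in 17 (0.28 to 0.31). Gabarapl2 (-0.41, adjusted p = 0.00216), Atg13 (-0.35, adjusted p = 0.00556) and Pik3c3 (-0.28, adjusted p = 0.0175) responded less in M1 than in M2.

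The neighbouring parts of the pathway were read from 4 lists of 68 genes in all. Their counts stand beside 21.0%, 44.3% and 36.4% of all genes called with the inhibitor in M0, M1 and M2. Among genes at or above the lowest member's level the shares were 27.1%, 55.9% and 45.7%. Among 12 other genes of the lipid kinase complex and membrane supply, 2 rose and 2 fell with the inhibitor in M0, 5 and 2 in M1, and 5 and 2 in M2, or 33.3%, 58.3% and 58.3% of the list. Wdr45, a relative of the WIPI proteins, rose in all 3 (0.40, 0.65 and 0.63), as did Vmp1, an endoplasmic reticulum scramblase (0.42, 0.25 and 0.41), and Tmem41b, which works with it, rose in M1 (0.56) and M2 (0.33). Among 19 genes of autophagosome fusion with the lysosome, 2 rose and 4 fell in M0, 3 and 5 in M1, and 4 and 2 in M2, or 31.6%, 42.1% and 31.6%. Epg5, a tether for that fusion, rose in all 3 (0.35, 0.63 and 0.55), Rab33b rose in all 3 (0.25, 0.30 and 0.39), and the syntaxin gene Stx7 fell (-0.20, -0.45 and -0.31). Of 18 other receptor genes, Sqstm1 included, 16 passed the filter on low counts, and of these 1 rose and 2 fell in M0, 5 and 6 in M1, and 2 and 4 in M2, or 18.8%, 68.8% and 37.5%. Wdfy3, an adaptor for aggregates, fell in all 3 (-0.26, -0.47 and -0.29), Bnip3, a receptor on mitochondria, fell in M1 (-0.99), and Rtn3, a receptor for the endoplasmic reticulum, rose in M2 (0.29). Among 19 genes of mTORC1 and AMPK signalling and the transcription factors that control autophagy, 2 rose and 2 fell in M0, 5 and 6 in M1, and 4 and 4 in M2, or 21.1%, 57.9% and 42.1%. Akt1s1, an inhibitor within mTORC1, rose in all 3 (0.24, 0.72 and 0.48), and its activator Rheb rose in M1 (0.63). Sesn2, a leucine sensor, fell in M0 (-0.83) and M2 (-0.47) and rose in M1 (0.63).

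In M1 against M0 the 4 lists had 3 genes higher and 6 lower, 8 and 6, 6 and 5, and 9 and 5, in the order above. These are 75.0%, 73.7%, 68.8% and 73.7% of the genes tested in each list, near the share of all genes called (68.8%, and 76.0% at or above the lowest member's level). Deptor, an inhibitor of mTOR, had the largest change at -5.39, from a mean of 28.01 CPM to 0.64 CPM, followed by the endoplasmic reticulum receptor Retreg1 (-2.34), Tecpr1, which acts at autophagosome and lysosome membranes (-2.18), the transcription factor gene Foxo3 (-1.79) and the mitophagy receptor Bnip3l (-1.51). Wdr45 fell (-0.90), Rubcnl rose (0.90) and Vamp8, a SNARE of the fusion step, rose (0.87). In M2 against M0 the counts were 2 and 3, 4 and 3, 3 and 3, and 7 and 2, or 41.7%, 36.8%, 37.5% and 47.4% of each list, where 36.2% of all genes were called. Genes that rose included Nrbf2, a subunit of the lipid kinase complex (1.22), Prkaa2 (1.24, at a mean of 2.25 CPM in M2), Mitf (0.71) and Plekhm1 (0.40), and genes that fell included Retreg1 (-1.38), Tecpr1 (-0.70), Zfyve1 (-0.43) and Wdfy3 (-0.26). In M1 against M2 the counts were 3 and 5, 7 and 5, 5 and 6, and 5 and 7, or 66.7%, 63.2%, 68.8% and 63.2% of each list, where 66.6% of all genes were called.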

How the data were processed

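The deposited table holds raw read counts per Ensembl gene. Per the submitters' processing notes, FastQC 0.11.9, cutadapt 2.8, Bowtie2 2.2.5, Picard and the mm10 build were used; no source used here states the counting tool, its strand setting or its annotation. Symbols came from a table of Ensembl IDs and symbols (54409 of 54532 features; features without one held 0.0282% of counts). Genes were filtered with filterByExpr (14692 kept, 99.9% of counts), scaled by TMM and tested with edgeR 4.0.16 (R 4.3.3) in 1 quasi-likelihood fit over 24 libraries with 1 mean per group and 18 residual degrees of freedom, adjusted by Benjamini-Hochberg over all genes tested. CPM are counts scaled to a common library total, corrected by TMM. Exonic lengths, overlaps and coordinates came from GENCODE (GRCm38). Fold changes are log2 with the fit's SE. Alternatives were DESeq2 1.42.0 size factors and Wald test, limma 3.58.1 voom with quality weights, other filters, the comparison's libraries alone, a replicate block, and leaving out each library. The fit was also run on simulated counts with changes planted in M0_ONX0914 alone. These were drawn from group means and the fitted spread and did not imitate the unlike library M1 replicate 2.

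The members, lists and tests were chosen with earlier results of these data known. All 34 members are named. Values in every library are given for the 3 called members with the largest change in each pairwise comparison and the 2 in each difference of effects, at a mean of 5 CPM or more, and for others chosen after their values were seen (such as Nbr1 and Rb1cc1). From each pathway list up to 2 called genes per comparison are named, with further values of the same genes and Sqstm1. Tests run on counts with 4 libraries a group. No protein sequence was used here.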

Additional observations from a re-analysis of the deposited data

Results flagged for a closer look

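In 10 of 204 sets of 4 libraries, 1 library lay far from the other 3 for a member's level; chance alone gives about 1 in 20. M1 replicate 2 was that library 4 times: Rb1cc1 at 12.6 CPM against 34.1 to 36.3 in the other M1 libraries, Atg101 at 23.9 CPM against 15.9 to 17.0, Atg4b at 52.1 CPM against 43.8 to 45.1 and Wipi1 at 8.31 CPM against 6.99 to 7.07. M2_ONX0914 replicate 4 was low for Atg4b (32.2 CPM) and Calcoco1 (46.4 CPM), and M2_ONX0914 replicate 3 for Pik3c3 (36.9 CPM). M0_ONX0914 replicate 4 was low for Atg3 (54.4 CPM), M0_ONX0914 replicate 3 for Atg9a (17.0 CPM), and M1_ONX0914 replicate 3 for Atg4a (28.2 CPM).

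The effect of ONX-0914 differed between states, by the interaction test, in 28 cases. From M0 to M1 the log2 effect was higher by 1.20 for Atg16l2, 0.86 for Gabarapl1, 0.76 for Atg14, 0.62 for Atg2b, 0.51 for Wipi2, 0.44 for Atg12, 0.40 for Tax1bp1, 0.37 for Nbr1, 0.36 for Atg4a and 0.32 for Ulk1. It differed by -0.32 for Map1lc3a, -0.32 for Atg16l1 and -0.30 for Atg7. From M0 to M2 it was higher by 0.55 for Atg16l2, 0.50 for Atg2b, 0.49 for Ulk1, 0.37 for Tax1bp1, 0.36 for Wipi2, 0.35 for Nbr1, 0.30 for Gabarapl1 and 0.30 for Atg12. Between M2 and M1 it was higher in M1 by 0.65 for Atg16l2, 0.56 for Gabarapl1, 0.44 for Atg14 and 0.21 for Optn, and differed by -0.41 for Gabarapl2, -0.35 for Atg13 and -0.28 for Pik3c3. Some of these calls were lost when a library was left out. From M0 to M1, Map1lc3a was lost in 16 of 24 such fits (-0.34 to -0.26) and Atg7 without M0 replicate 2, M0_ONX0914 replicate 2 or M1_ONX0914 replicate 4 (-0.27 to -0.24). Between M2 and M1, Optn was lost in 16 (0.18 to 0.21).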

How the results depend on the processing

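No alternative turned the direction of a called member. The number of members called with ONX-0914 in M0 went from 13 to 21 (13 higher, 8 lower) with limma voom and quality weights, and ran from 11 to 21 when each library was left out, the highest without M1 replicate 2. Over all genes that comparison called 3079 genes, and 4622 with limma voom. For the difference in effect between M2 and M0, all genes called went from 907 to 1847 with limma voom and to 1590 with the libraries of the comparison alone, and ran from 660 to 1672 when each library was left out; the members called ran from 5 to 12, the lowest without M0 replicate 1 or M0_ONX0914 replicate 3. The cause was not tested. Of the members called, 11 of 13 with ONX-0914 in M0, 15 of 21 in M1, 20 of 23 in M2, 26 of 28 in M1 against M0, 13 of 19 in M2 against M0 and 25 of 28 in M1 against M2 were called under every alternative run. With the replicate number as a block, the members called were 13, 22 and 24 with ONX-0914 in M0, M1 and M2. They were 28, 18 and 29 in the comparisons between states, and 13, 8 and 7 for the differences of effects. Deviations of same-numbered libraries from their group means gave 60 correlations between groups, from -0.08 to 0.20, 6 of them over 0.1. Differently numbered libraries were not compared in this way, so this check cannot tell whether the numbers pair libraries. DESeq2 size factors moved the median of all genes by at most 0.04. Groups of 4 pooled libraries limit what is called. Small changes lay near the threshold, such as Atg4b with ONX-0914 in M1, Wipi2 in M2 against M0 and Pik3c3 in M1 against M2.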
